A study of Rattus norvegicus with 24 samples.

Results

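The hypothalamus of rats on the day of first ovulation was compared with that of younger, early juvenile rats. The comparison uses 10 of the 24 arrays of the series, 1 rat per array, chosen by their stage labels alone: late proestrus, the day of the first ovulation, at 31 days (n = 5, animals 11, 12, 13, 14 and 20), and early juvenile at 21 days (n = 5, animals 164 to 168). Both groups are Sprague Dawley rats given no treatment that the labels record. They were kept 4 to a cage, and which rats shared a cage is not known. The labels do not state the sex, though proestrus and ovulation are stages of the female cycle, and age and stage differ together here and cannot be told apart. The rats in between, used further on for position, were juvenile (26 days), late juvenile (29 days) and early proestrus, before ovulation (29 to 32 days by the sample labels). Animal numbers of the early juvenile group lie in a range of their own (164 to 168), while late proestrus, early proestrus and juvenile animals are numbered from 1 to 20, so stage and any handling peculiar to the early juvenile group cannot be told apart in the main comparison. Late juvenile animals also have a range of their own, from 28 to 37.

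The hypothalamus sets the time of puberty through neurons that release gonadotropin-releasing hormone in pulses onto the pituitary. In the juvenile animal this release is held back. Near puberty it gains excitatory input, among others from neurons that make kisspeptin and neurokinin B and from signals of glial cells, and in proestrus rising oestrogen from the ovary turns into the trigger of the preovulatory surge of luteinizing hormone. The study as titled is about how the hypothalamus controls puberty, and late proestrus and early juvenile are the last and the first of its 5 stages.

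Total RNA of the dissected hypothalamus was labelled and bound to Illumina bead arrays, on which the brightness of a probe reports the amount of RNA bound to it. The array carries 22523 probes, grouped under 21886 targets. Which gene a probe belongs to is not stated in the files, and a search of the RefSeq rat gene table matched 0 of the 22523, so transcripts appear here under their probe identifiers and no gene, cell type or pathway is named. For the same reason the dissection could not be checked against hypothalamic markers or markers of neighbouring tissue. Late proestrus arrays detected 49.0% to 51.2% of probes and early juvenile arrays 47.5% to 50.3% (detection p under 0.05), with mean raw intensities of 694.9 to 1025 in late proestrus and 835.9 to 1000.2 in early juvenile rats. The number of arrays limits the precision. In whole tissue, fewer cells of a type and less RNA per cell cannot be told apart.

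Late proestrus hypothalami differed from early juvenile ones in many transcripts by small amounts and in few by large ones. Of 11506 probes detected on at least 4 of the 10 arrays, 676 were higher and 676 lower in late proestrus (limma, Benjamini-Hochberg adjusted p under 0.05), which together is 11.8% of the probes tested, or 5.88% in each direction. The median rise among the 676 was 0.44 on the log2 scale, or 1.35-fold, and the median fall was -0.42, or 1.33-fold. Over all probes tested the median absolute difference was 0.139 with a median standard error of 0.103. An unadjusted p under 0.05 was reached by 3264 probes, 28.4% of those tested. At a false discovery rate of 0.01 the count was 413, with 210 higher and 203 lower. The 1352 probes stand for 1345 target identifiers, so nearly every one reports a target of its own.

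The even balance of the 2 directions holds relative to each array's own distribution of intensities, which quantile normalization makes equal. With each array scaled to its median instead, 491 were higher and 241 lower, a total of 732. The count also depended on single rats: without early juvenile replicate 4 it was 820, without early juvenile replicate 1 it was 845 and without late proestrus replicate 2 it was 882, against 1471 without early juvenile replicate 3. Called in the fit of 10 arrays and in each of the 10 fits that leave out 1 array were 692 of the 1352 probes (51.2%), 349 of them higher and 343 lower.

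Only 39 of the called probes, 0.339% of those tested, differed by 2-fold or more, 19 higher and 20 lower in late proestrus. At a log2 size of 1.5 or more there were 2 higher and 7 lower. The 5 late proestrus values and the 5 early juvenile values did not overlap for 18 of the 19 rises and 14 of the 20 falls of at least 2-fold. All 10 arrays detected 15 of these rises and 12 of these falls, so the size of the remainder rests partly on values near background. Dependence on background was not limited to that remainder. Without background correction, 3 rises and 7 falls of at least 2-fold passed the threshold. A further 9 probes differed by 2-fold or more without passing the test, 6 higher and 3 lower in late proestrus, with adjusted p-values from 0.0504 to 0.309 (limma). In none of these 9 did the stages separate, and each had an SD of 0.72 or more within late proestrus, early juvenile or both.

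**Figure D1:**
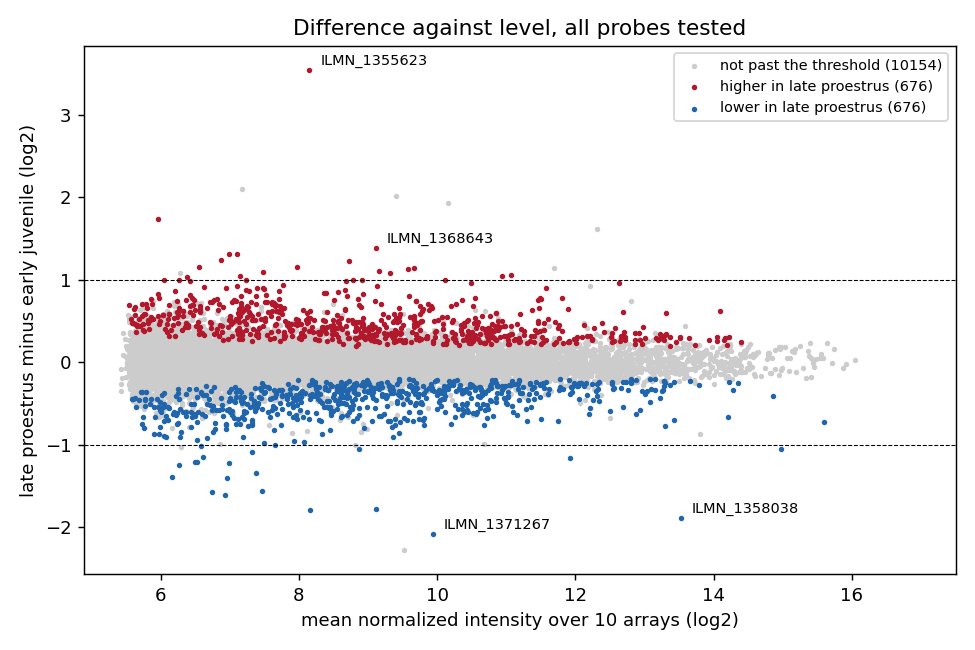
Difference of late proestrus minus early juvenile (y axis, log2) against the mean normalized intensity over the 10 arrays (x axis, log2) for the 11506 probes tested, with the 676 higher in red, the 676 lower in blue and dashed lines at 2-fold. Most coloured points lie inside the dashed lines, and ILMN_1355623 stands above all others at 3.54.

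The separation of the stages can also be read from the values themselves. For 1320 probes, 11.5% of those tested, all 5 late proestrus values lay on one side of all 5 early juvenile values, 647 above and 673 below. Of the called probes, 513 of 676 rises and 524 of 676 falls were separated in this way (76.7% together), while 315 called probes overlapped and 283 separated probes were not called. Most called probes were detected throughout: 1225 of 1352 (90.6%) were detected on all 10 arrays, against 80.8% of all probes tested. Values close to background can also meet a detection p under 0.05. Few transcripts came close to being present in one stage and absent in the other. Probes detected on all 5 arrays of late proestrus and at most 1 of early juvenile numbered 23, and the reverse pattern was met by 21.

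Calls were spread over the range of brightness. Probes were divided by mean level into 4 bins of equal size. In the dimmest bin, with mean log2 intensities from 5.43 to 6.49, 5.07% were called, and in the next (6.49 to 8.07) 11.6%. In the bin from 8.07 to 10.02 the share was 15.2%, and in the brightest (10.03 to 16.05) 15.1%. The median standard error was 0.156, 0.116, 0.0872 and 0.0746 from the dimmest to the brightest bin, and the median absolute difference of called probes was 0.56, 0.52, 0.40 and 0.33. Called dim probes differed by more, but with a larger standard error a difference had to be larger there to pass the threshold.

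The largest difference of the comparison was the rise of ILMN_1355623, a probe of middling brightness. Its raw intensities were 977.4, 1357, 1095, 1459 and 959.2 on late proestrus replicates 1 to 5, against 235.1, 281.2, 248.4, 260.9 and 251.7 on early juvenile replicates 1 to 5. All 5 late proestrus arrays were far above all 5 early juvenile arrays, and the early juvenile values lay close to background though still detected. After normalization the log2 intensity was 9.92 ± 0.31 (SD, n = 5) in late proestrus and 6.38 ± 0.12 (SD, n = 5) in early juvenile rats, a log2 difference of 3.54 (SE 0.14, limma adjusted p = 2.3e-07), or 11.6-fold. The nearest arrays of the 2 stages were 3.02 apart on the log2 scale. The size depends on background correction: the log2 difference was 2.15 without it, and the mean raw intensities differed by 4.58-fold.

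ILMN_1368643 gave the second rise by the rule for naming probes, and ranked 17 among all probes tested by size of difference. A larger rise past the threshold, of log2 size 1.5 or more, did not meet that rule. Its log2 intensities were 9.85, 9.97, 9.78, 9.68 and 9.76 on the late proestrus arrays, against 8.54, 8.52, 8.02, 8.54 and 8.48 on the early juvenile arrays. Late proestrus rats were alike, and early juvenile replicate 3 lay below the other 4 of its stage. The means were 9.81 ± 0.11 (SD, n = 5) in late proestrus and 8.42 ± 0.22 (SD, n = 5) in early juvenile rats, a log2 difference of 1.39 (SE 0.11, limma adjusted p = 7.5e-05) or 2.61-fold. Raw intensities averaged 1093 ± 210 (SD, n = 5) in late proestrus and 511.3 ± 67.3 (SD, n = 5) in early juvenile rats.

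ILMN_1371267 showed the largest fall past the threshold, carried by 4 of the 5 late proestrus rats. Its log2 intensities were 8.59, 8.64, 8.24, 10.60 and 8.43 in late proestrus, against 10.62, 11.10, 11.25, 10.72 and 11.22 in early juvenile rats. Late proestrus replicate 4 was at the level of the lowest early juvenile array, which it missed by 0.0175 on the log2 scale, and the other 4 lay far below. The means were 8.90 ± 0.96 (SD, n = 5) in late proestrus and 10.98 ± 0.29 (SD, n = 5) in early juvenile rats (log2 difference -2.08, SE 0.38, limma adjusted p = 0.0074, 4.23-fold). Without late proestrus replicate 4 the difference was -2.50. In raw intensity that rat had 1792, against 570.5, 650.9, 552.2 and 407.1 in replicates 1, 2, 3 and 5.

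ILMN_1358038 was among the brightest probes, above 97.9% of those tested in mean level. Its raw intensities were 3868, 11385, 4718, 10280 and 4890 in late proestrus, against 19830, 22489, 19058, 26112 and 24787 in early juvenile rats. Every late proestrus rat was below every early juvenile rat, and replicates 2 and 4 were the highest of late proestrus. After normalization, which allows for the low brightness of the replicate 5 array, the late proestrus values were 11.87, 13.24, 11.92, 13.25 and 12.63 on the log2 scale, with replicate 5 between the rest. The means were 12.58 ± 0.68 (SD, n = 5) in late proestrus and 14.47 ± 0.24 (SD, n = 5) in early juvenile rats, a difference of -1.89 (SE 0.28, limma adjusted p = 0.0032) or 3.71-fold. Background hardly touches a signal this bright, and the difference without background correction was -1.86.

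**Figure D2:**
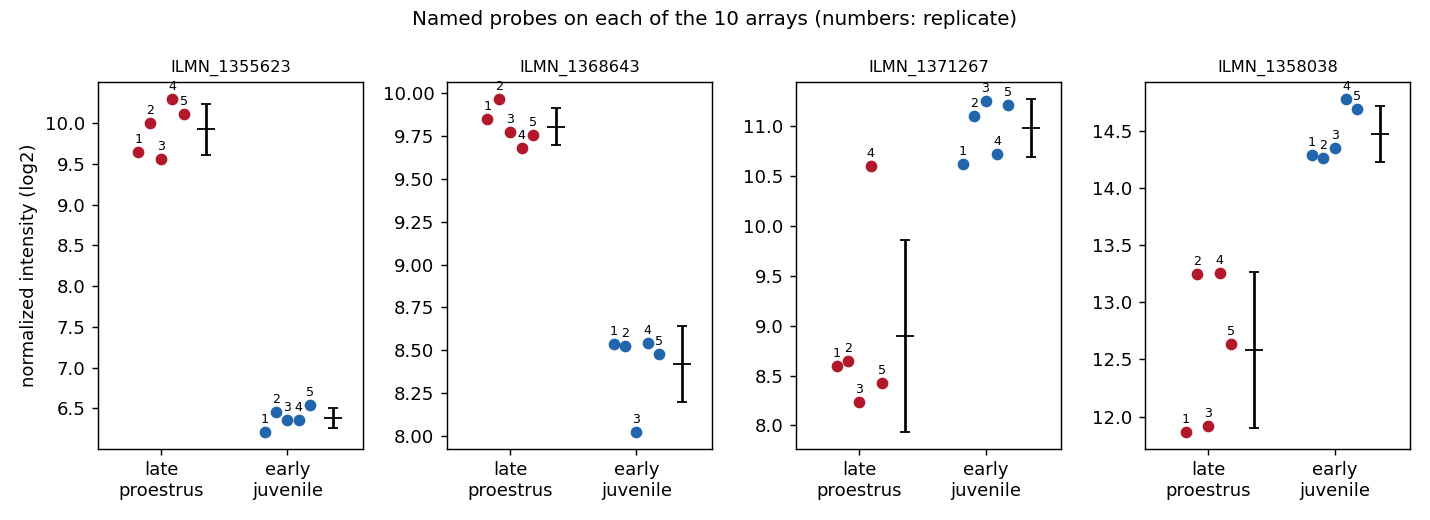
Normalized intensity (y axis, log2) of 4 named probes on the 5 late proestrus arrays (red, left) and the 5 early juvenile arrays (blue, right), with replicate numbers at the points and mean ± SD as black bars. The stages do not overlap in any panel, and late proestrus replicate 4 comes within 0.0175 of the early juvenile range for ILMN_1371267.

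None of the 4 targets had a second probe among those tested. Of all targets, 203 had at least 2 probes tested, and the 2 brightest were compared. In 39 of these pairs at least 1 probe was called, and in 30 of the 39 (76.9%) both probes had the same sign, against 128 of all 203 pairs (63.1%). Both probes were called in 7 pairs, each with 1 sign. These pairs share the same 10 animals, so they bear on the probes and not on the rats.

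Rats of late proestrus differed among themselves slightly more than early juvenile rats, as a description with no test. The median SD of a probe was 0.165 in late proestrus and 0.148 in early juvenile rats, and it was larger in late proestrus for 56.9% of the probes tested. An SD of at least 0.5 was reached by 199 probes in late proestrus and 100 in early juvenile rats. Late proestrus replicate 5 was the array farthest from the others of its stage for 90 of the 199, replicate 4 for 41 and replicate 1 for 36. In early juvenile rats replicate 5 was farthest for 39 of the 100 and replicate 3 for 29. Late proestrus replicate 5 was also the dimmest of the 10 arrays, at a mean raw intensity of 694.9, and the part of brightness in its distance was not tested. Without it 1079 probes were called, 533 higher and 546 lower in late proestrus, of which 982 were called with the same sign on all 10 arrays.

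Principal components of the 10 arrays separated the stages on the first, which held 31.7% of the variance. There late proestrus arrays scored 9.49, 11.5, 11.5, 12.4 and 22.8 and early juvenile arrays -14.7, -13.8, -8.41, -15.9 and -14.9 in order of replicate. Late proestrus replicate 5 lay farthest out on the side of late proestrus, and early juvenile replicate 3 lay nearest to the middle. The next 2 components, with 15.5% and 13.6%, ran mainly within the stages. Correlations between arrays over the 11506 probes were 0.986 to 0.993 within late proestrus, 0.988 to 0.994 within early juvenile and 0.980 to 0.989 between the stages, given as a description since most probes are at nearly equal levels on all arrays.

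Each array was then placed by probes that it had no part in choosing. Probes were called on the other 9 arrays, and it was counted for how many of them the array left out lay nearer to the mean of its own stage than to that of the other. For late proestrus replicates 1 to 5 the share was 69.8%, 89.6%, 80.5%, 81.1% and 84.2% of 882 to 1324 probes. For early juvenile replicates 1 to 5 it was 92.8%, 83.2%, 64.3%, 92.4% and 85.2% of 820 to 1471 probes. Every array therefore fell with its own stage for most of these probes. Over all probes tested the same shares ran from 56.7% to 64.8% in late proestrus and from 53.1% to 67.7% in early juvenile rats. Early juvenile replicate 3 and late proestrus replicate 1 were the least typical of their stages by this measure. At the median probe early juvenile replicate 3 lay 0.348 of the way from the early juvenile to the late proestrus mean, against -0.0234 to 0.0934 for the other 4 early juvenile rats.

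The 12 usable arrays of the stages between were placed in the same manner, by the 1352 probes called in late proestrus against early juvenile, on a normalization of 22 arrays. A juvenile array that detected 19.5% of probes and an early proestrus array that detected 6.33% were left out, where the other 22 detected at least 45.5%. Juvenile rats of 26 days were nearer to the late proestrus mean for 67.2%, 58.7%, 60.1% and 71.1% of the probes (replicates 1, 2, 3 and 5). Late juvenile rats of 29 days had 67.6%, 46.2%, 44.4%, 52.5% and 48.7%. Early proestrus rats had 65.5% at 29 days, 88.2% at 31 days and 80.0% at 32 days. The early proestrus rats of 31 and 32 days were thus above every juvenile and late juvenile rat, while the early proestrus rat of 29 days lay within the range of the juvenile rats. By the 39 probes of at least 2-fold alone that rat stood higher, at 89.7%, beside 87.2% and 89.7% for the early proestrus rats of 31 and 32 days. Juvenile rats then had 64.1% to 82.1% and late juvenile rats 48.7% to 69.2%. Over all 11506 probes these shares were 51.2% to 58.6% in juvenile, 46.8% to 57.4% in late juvenile and 53.2% to 66.5% in early proestrus rats. The order of the stages by this measure did not follow age, since most late juvenile rats lay nearer to early juvenile than the younger juvenile rats did. Late juvenile animals carry numbers in a range of their own, so stage and any handling peculiar to them cannot be told apart. Juvenile replicate 5 and late juvenile replicate 1, the highest of their stages, were also the dimmest of the 12 arrays (mean raw intensity 513.7 and 582.9), and the part of brightness in their place was not tested.

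**Figure D3:**
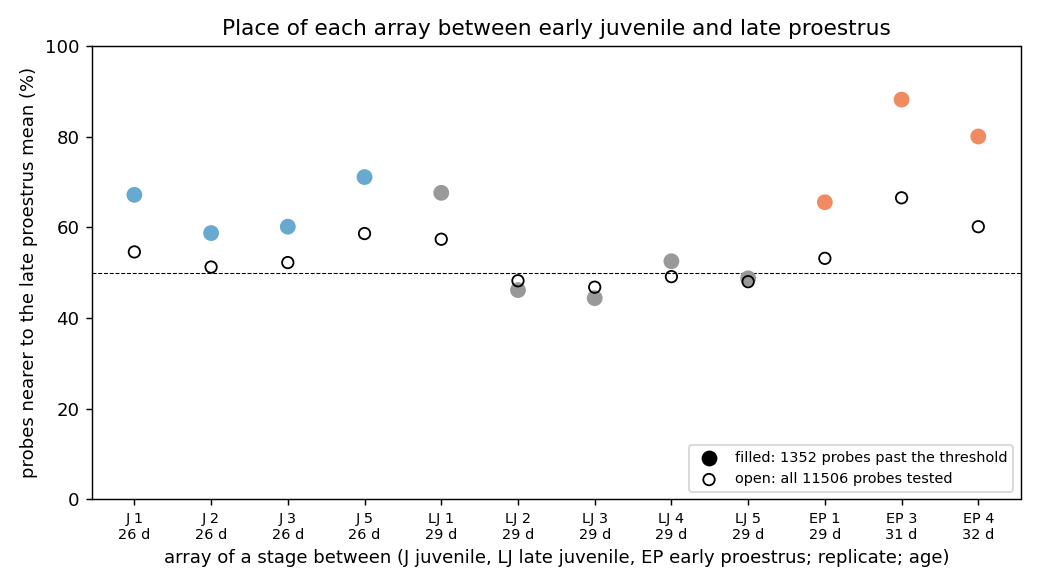
Percent of probes nearer to the late proestrus mean than to the early juvenile mean (y axis) for each array of the stages between (x axis, replicate and age in days), for the 1352 probes past the threshold (filled) and all 11506 tested (open). Early proestrus rats of 31 and 32 days reach 88.2% and 80.0%, and the late juvenile rats other than replicate 1 lie between 44.4% and 52.5%.

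By stage means, juvenile rats of 26 days lay between the end stages for most called probes. Of the 676 higher in late proestrus, the juvenile mean lay between the early juvenile and late proestrus means for 576 (85.2%), at or past the late proestrus mean for 82 and at or below the early juvenile mean for 18. Of the 676 lower, it lay between for 534 (79.0%), past the late proestrus mean for 137 and on the far side of early juvenile for 5. Over all 11506 probes, called or not, the juvenile mean lay between for 43.0%. The late juvenile mean lay between for 53.3% of the probes that rose and 54.9% of those that fell, beside 23.1% of all. The early proestrus mean lay between for 66.3% and 60.2%, beside 36.0% of all, and past the late proestrus mean for 32.2% and 39.1%, beside 40.2% of all. Called probes were chosen for a wide gap between the end stages, with a median absolute difference of 0.426 against 0.139 over all probes. A wider gap leaves more room between, so the shares of all probes are no like comparison. The median difference of juvenile from early juvenile rats was 0.29 for the probes that rose, where that of late proestrus was 0.43. For the probes that fell it was -0.30, where that of late proestrus was -0.41. These differences share the early juvenile arrays, on which the probes were also chosen, and are given side by side for that reason. In early proestrus the medians were 0.36 and -0.36, and in late juvenile rats 0.22 and -0.24.

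Few called probes changed step by step over all 5 stages. Means rose at every step from early juvenile to late proestrus for 46 of the 676 probes that were higher (6.80%) and fell at every step for 35 of the 676 that were lower (5.18%). Among all probes tested with a positive or a negative difference, called or not, the shares were 1.90% and 1.45%. Without the late juvenile stage, a choice made after its values had been seen, the counts were 272 (40.2%) and 216 (32.0%), beside 13.5% and 12.2%. The end points of the sequence chose the probes, so only the inner stages add to it. The wider gap of called probes also leaves more room for the inner means, so the shares of all probes are no like comparison. The ages of late juvenile, early proestrus and late proestrus rats lie close together or overlap.

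The 4 named probes took different courses through the stages in between. ILMN_1355623 had stage means of 6.33 in early juvenile, 7.55 in juvenile, 7.83 in late juvenile, 7.84 in early proestrus and 9.80 in late proestrus rats. It thus stood at similar levels in the 3 middle stages and was higher again in late proestrus, where the lowest array (9.44) lay above the highest of any other stage (8.37, early proestrus replicate 4). ILMN_1368643 climbed more evenly, with means of 8.32, 9.07, 9.18, 9.51 and 9.69 in the same order. Its early proestrus arrays (9.39 to 9.70) overlapped the late proestrus ones (9.56 to 9.85).

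The mean of ILMN_1371267 was lower in every later stage than in early juvenile rats. The means were 10.86 in early juvenile, 9.21 in juvenile, 9.33 in late juvenile, 8.93 in early proestrus and 8.80 in late proestrus rats, and the highest of the 12 arrays in between (9.94) lay below the lowest early juvenile array (10.50). Late proestrus replicate 4, at 10.48, was therefore higher than all 12. ILMN_1358038 had means of 14.36, 12.29, 12.57, 11.80 and 12.46, and 2 rats lay far below the others of their stages, at 10.16 (juvenile replicate 5) and 10.25 (late juvenile replicate 1). Their arrays are the 2 dimmest of the 22, and the part of brightness in these low values was not tested. On the same 2 arrays ILMN_1371267 was at 9.27 and 9.08, within the range of the other rats of each stage. ILMN_1368643 was the lowest of its stage on both, at 8.88 and 8.62. ILMN_1355623 was at 7.62, within the range of the other juvenile rats, and at 8.32, the highest of late juvenile. With the 2 rats set aside for their low values, the juvenile mean of ILMN_1358038 was 13.00 and the late juvenile mean 13.15. Both lie between the early juvenile and the early proestrus mean. In late proestrus the probe ranged from 11.74 to 13.13, which overlaps the range of the other juvenile and late juvenile rats.

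**Figure D4:**
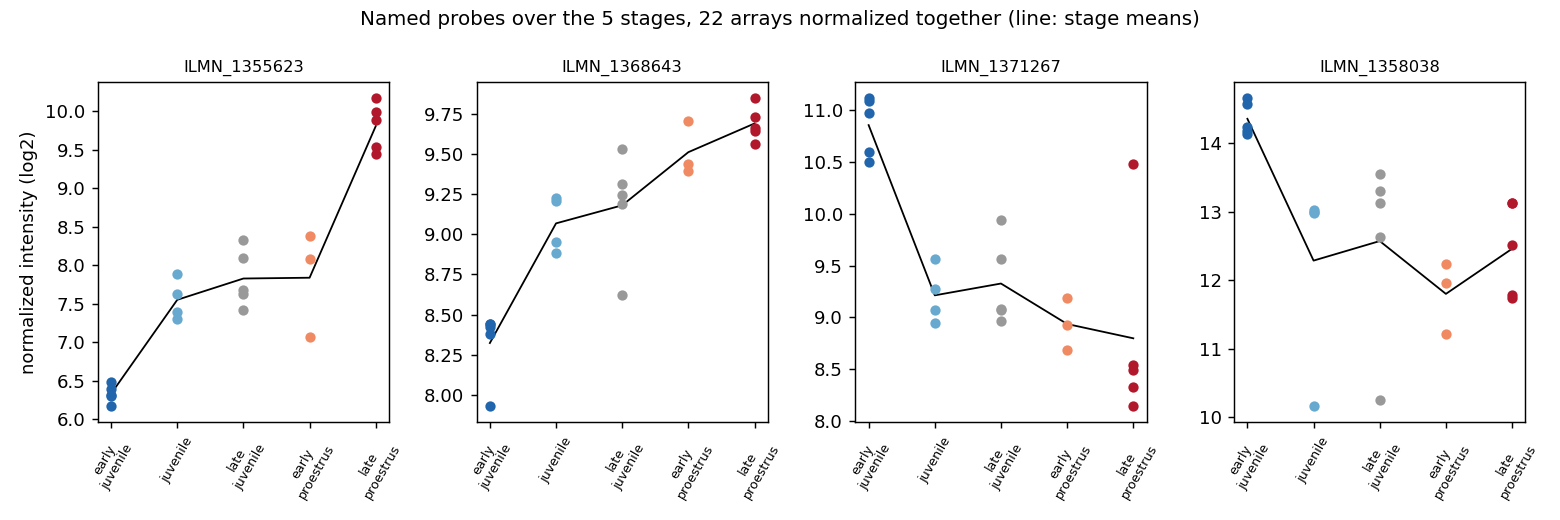
Normalized intensity (y axis, log2) of the 4 named probes on 22 arrays of 5 stages from early juvenile to late proestrus (x axis), with a line through the stage means. ILMN_1355623 shows its last step between early proestrus (7.84) and late proestrus (9.80), and ILMN_1371267 its main step between early juvenile (10.86) and juvenile (9.21).

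Early proestrus against juvenile rats gives a further look at the called probes on arrays that had no part in choosing them and that lie within one range of animal numbers. It held 3 early proestrus and 4 juvenile arrays, normalized apart. On its own this comparison called 0 of 11506 probes (limma, 0% of those tested), with 283 at an unadjusted p under 0.05 (2.46%) and a median standard error of 0.159. Of the 676 probes higher in late proestrus, 487 (72.0%) were higher in early proestrus than in juvenile rats, where 52.2% of all probes tested were. Of the 676 lower, 464 (68.6%) were lower in early proestrus, where 47.8% of all probes were. The 2 directions therefore leaned the same way as in the main comparison, by small amounts: the median difference of early proestrus minus juvenile was 0.074 for the probes that rose and -0.066 for those that fell, against 0.0077 over all probes.

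Probes that had not been called but had a positive difference in late proestrus against early juvenile were higher in early proestrus in 56.7% of cases (2818 of 4968), and those with a negative difference were lower in 51.9% (2693 of 5186). Among the probes of at least 2-fold, 16 of 19 rises and 14 of 20 falls had the same direction. An unadjusted p under 0.05 with the same direction was reached by 15 of the 676 rises and 11 of the 676 falls, and with the opposite direction by 6 and 2. Together these are 34 of the 1352 called probes, or 2.51%, about the same share as the 2.46% of all probes tested. Both shares are below the nominal share for a cut of 0.05 where no probe differs. ILMN_1368643 was one of the 15, with a log2 difference of 0.45 (SE 0.14, limma adjusted p = 1). For ILMN_1355623 the difference was 0.29 (SE 0.30), for ILMN_1371267 -0.28 (SE 0.18) and for ILMN_1358038 -0.48 (SE 0.67), each with a limma adjusted p of 1.

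Over both directions 951 of the 1352 probes (70.3%) kept their sign in early proestrus against juvenile rats, beside 56.2% of all probes tested. Leaving out 1 of the 7 arrays gave 60.4% to 74.0%, with the lowest value without early proestrus replicate 3, the rat of 31 days that also lay nearest to late proestrus among the 12 arrays in between. The 56.2% belongs to the fit of all 7 arrays, and the share of all probes without each array is not given here.

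**Figure D5:**
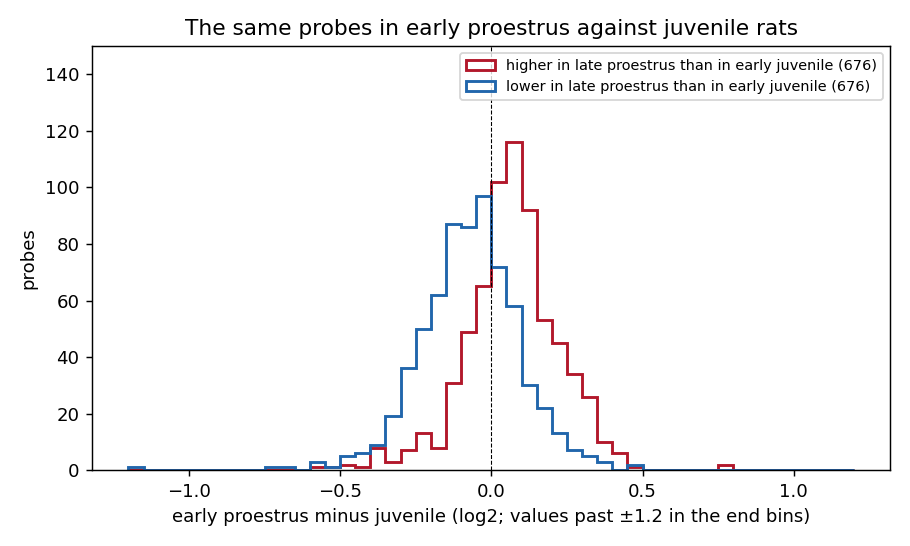
Number of probes (y axis) by their log2 difference of early proestrus minus juvenile (x axis), for the 676 probes higher (red) and the 676 lower (blue) in late proestrus than in early juvenile rats. The red distribution is centred at 0.074 and the blue at -0.066, with wide overlap.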

How the data were processed

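The deposited intensity of each probe is not normalized, per the file headers, and beside it the authors' table gives a detection p-value against background; the scanner software is not given in the sources used here. A second deposited table holds the authors' processed intensity, on a linear scale and with the rank order of the raw values on each of the 10 arrays (column medians 216.2 to 216.5), with the method unstated.

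The 10 arrays were normalized together with neqc in limma 3.58.1 (R 4.3.3): background inferred from the detection p-values, offset 16, quantile normalization, log2. Probes with a detection p under 0.05 on at least 4 of the 10 were kept, each as its own test. A 2-group model was fitted with lmFit and eBayes, two-sided, with Benjamini-Hochberg adjustment and a threshold of 0.05. Differences are late proestrus minus early juvenile. The fit was tested on simulated data. The sources used here give neither slide nor scan date. Replicates are numbered in accession order, and animal numbers mark every array as its own rat.

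The comparison and the tests were chosen with earlier results of these data known. Named probes are the 2 largest rises and 2 largest falls among probes past the threshold, without overlap and detected on all 5 arrays of late proestrus or early juvenile. Gene lists that had been prepared are not analysed here, since no probe could be paired with a gene symbol.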

Additional observations from a re-analysis of the deposited data

Results flagged for a closer look

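Within stages of 4 or 5 arrays, an extreme value was looked for in detection, brightness, principal components and the 4 named probes. One array stood well apart in 8 of the 26 sets examined. The nominal share by chance is about 5% for independent sets. These sets share arrays, and the 4 probes were picked on some of them, so the count cannot be judged against that share. In late proestrus, replicate 3 detected 51.2% of probes against 49.2% ± 0.28 (SD, n = 4) on the others. Replicate 5 scored 22.8 on the first principal component against 11.2 ± 1.2 (SD, n = 4). Replicate 4 had ILMN_1371267 at 10.60 against 8.47 ± 0.18 (SD, n = 4).

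In early juvenile rats, replicate 2 had a mean raw intensity of 1000.2 against 844.6 ± 16.1 (SD, n = 4). Replicate 3 scored -8.41 on the first principal component against -14.8 ± 0.85 (SD, n = 4), and had ILMN_1368643 at 8.02 against 8.52 ± 0.029 (SD, n = 4). In the stages between, ILMN_1358038 was at 10.16 in juvenile replicate 5 against 13.00 ± 0.021 (SD, n = 3) and at 10.25 in late juvenile replicate 1 against 13.15 ± 0.39 (SD, n = 4). Both arrays were of low brightness, the part of which was not tested.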

How the results depend on the processing

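The count of 1352 probes stayed within 1.5 times under 13 of 19 alternatives. It was higher, at 1990, with arrays weighted in the fit, at 1877 from the values the authors processed and at 1866 without background correction. With a detection p under 0.01 required on all 10 arrays, the count was 1658. With mean raw intensity as a covariate it was 1427 (707 higher, 720 lower), of which 1254 were called with the same sign in the main fit. The count was lower, at 732, with median scaling (491 higher, 241 lower). It was 888 with no filter on dim probes, which tests 22523, and 813 in a fit of all 22 usable arrays of the 5 stages. Leaving out 1 array gave 820 to 1471. The count of at least 2-fold, 39, was 10 if background was not corrected (3 higher, 7 lower) and 9 from the values the authors processed (2 higher, 7 lower). It was 25 among the 8321 probes with a detection p under 0.01 on all 10 arrays. Leaving out 1 array gave 35 to 50. In all 76 recomputed differences the 4 named probes kept their direction and passed the threshold, but they were picked for size on these arrays; without background correction the log2 sizes were 60.8% to 98.3% of those reported. The share of called probes with the same sign in early proestrus against juvenile rats was 60.4% to 74.0% when 1 array was left out, an alternative chosen after seeing the data, and 70.8% without background correction. With no array left out it was 70.3%, beside 56.2% of all probes tested. Why the results moved with these choices was not tested. No paired analysis was possible because the labels number the 24 arrays on through the series, so that no 2 stages share a label's number, and the replicate numbers used here were given in accession order. Signal over background limits what can be said of dim probes.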
